A study of Mus musculus with 6 samples.

Results

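Direct antiviral effector genes are interferon-induced genes whose products act on a virus or on the steps of its life cycle inside the infected cell. The 10 genes described here, Mx1, Mx2, Rsad2, Cmpk2, Bst2, Ifi44, Ifi44l, Ifitm2, Ifitm3 and Isg20, were taken by symbol from a list of such genes. The rule used no measured value, but the list was drawn up with earlier results of these data known. All 10 were among the 24411 genes of the count tables, and 8 of them were among the 10133 genes with enough counts to be tested. In primary microglia (PM) kept in the presence of GSK-J4, 3 of the 8 tested genes rose with LPS, where 2.95% of all tested genes were called up. They were Rsad2, 95.3-fold by mean level, Cmpk2, 46.3-fold, and Mx2, 15.3-fold. The remaining 5 were not called, and Ifi44l and Isg20 had too few counts for the test. Mx2 had enough counts for it only through the libraries with LPS.

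PM were isolated from the pooled brains of 12 ICR mice aged 3 days, grown as mixed glial cultures and collected by shaking. The study asked how GSK-J4, a small-molecule inhibitor of the H3K27 demethylase JMJD3, alters the transcription that follows LPS, the bacterial ligand of TLR4. RNA-seq counts were available for 3 libraries of PM given GSK-J4 alone (10 μM) and 3 libraries of PM given LPS (10 ng/ml) and GSK-J4 (10 μM), both for 4-h. No transgene or deleted allele was involved, and both groups carried GSK-J4. Untreated PM and PM given LPS alone were not analysed here, so each difference below is the LPS response left in the presence of GSK-J4 and not the effect of GSK-J4. The study describes the 3 samples of a group as independent, and where they share a pool of brains the p values measure only the spread between these cultures.

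LPS reaches the interferon system in steps. TLR4 signals from the endosome through the adaptors encoded by Ticam2 and Ticam1 to the kinases and factors that switch on Ifnb1, and secreted interferon beta then acts through its receptor, Ifnar1 and Ifnar2, on a transcription factor complex that includes STAT2 and IRF9. This complex binds the interferon-stimulated response element (ISRE) in promoters of interferon-stimulated genes. Some of these genes are also switched on directly by interferon regulatory factors before any interferon is made. Microglia, the resident macrophages of the brain, respond to LPS and to viral nucleic acids through this system.

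The promoters of the members are shown because the complex described above binds the ISRE. The choice of the genes read no sequence, but they were listed as interferon-induced, so it is not independent of the ISRE. Whether interferon acts on these members through an ISRE was not tested. RefSeq promoter windows of the mouse assembly GRCm38.p6, 250 bases before to 50 bases after an annotated start, were matched for 8 of the 10 genes. Isg20 had 3 windows, and Mx1 and Mx2 had none. The ISRE core was searched on both strands as GAAANNGAAA, in which N is any base and overlapping matches count separately. It was found in 4 of the 8 genes, Bst2, Ifitm2, Ifitm3 and Rsad2. Over all 27025 genes with a window it was found in 3.99%, and over all 32851 windows of the same length in 3.44%. The stretches below are written 5′ to 3′ on the strand of the gene, capitals mark the ISRE core matches, and positions are counted from the annotated start, with no position 0. Rsad2 is shown at chr12:26456453-26456602 on the minus strand (bases -150 to -1), Bst2 at chr8:71537473-71537622 on the minus strand (-150 to -1), Ifitm2 at chr7:140955962-140956061 on the minus strand (-100 to -1), Ifitm3 at chr7:141010715-141010864 on the minus strand (-120 to 30) and Cmpk2, shown as the gene next to Rsad2 without a match, at chr12:26469065-26469214 on the plus strand (-150 to -1).
Rsad2: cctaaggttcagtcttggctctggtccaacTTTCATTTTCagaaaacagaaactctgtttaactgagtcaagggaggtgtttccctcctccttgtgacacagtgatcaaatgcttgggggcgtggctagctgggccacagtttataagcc
Bst2: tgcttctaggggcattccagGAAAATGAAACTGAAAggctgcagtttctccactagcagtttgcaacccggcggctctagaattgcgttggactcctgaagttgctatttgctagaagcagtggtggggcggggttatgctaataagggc
Ifitm2: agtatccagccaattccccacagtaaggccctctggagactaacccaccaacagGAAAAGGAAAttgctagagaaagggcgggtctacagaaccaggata
Ifitm3: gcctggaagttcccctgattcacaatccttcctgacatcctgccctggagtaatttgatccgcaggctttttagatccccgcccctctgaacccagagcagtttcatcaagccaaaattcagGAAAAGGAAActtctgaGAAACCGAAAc
Cmpk2: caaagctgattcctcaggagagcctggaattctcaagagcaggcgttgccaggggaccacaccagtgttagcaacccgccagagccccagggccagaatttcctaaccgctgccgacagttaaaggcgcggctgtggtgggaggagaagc

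In Rsad2 the match lay at bases -120 to -111, with the core on the opposite strand and therefore read as TTTCNNTTTC. In Bst2 a pair of overlapping matches covered -130 to -121 and -124 to -115. Ifitm2 had a single match at -46 to -37, and both matches of Ifitm3 lay just after the start, at 3 to 12 and 20 to 29. Of the genes with the match, Rsad2 was called up, and Bst2, Ifitm2 and Ifitm3 were not called. Of the genes without it, Cmpk2 was called up, Ifi44 was not called, and Ifi44l and Isg20 were not tested.

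Other patterns were searched in the same windows. The gamma-activated site, TTCNNNGAA, was found in Bst2, Ifitm3 and the first window of Isg20, and in 9.55% of all genes and 8.30% of all windows. A kappaB-like pattern, GGGNNNTTCC, of the kind bound by NF-kappaB, was found in Bst2, in Ifitm3 on the opposite strand and in the second window of Isg20. It was found in 6.31% of all genes and 5.56% of all windows. In Bst2 the kappaB-like match, the gamma-activated site and the ISRE cores overlapped one after another between -142 and -115. No pattern was matched in the windows of Cmpk2, Ifi44 and Ifi44l. The map of pattern matches shows these places, and a match is a string of letters, not a measured binding site.

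**Figure D1:**
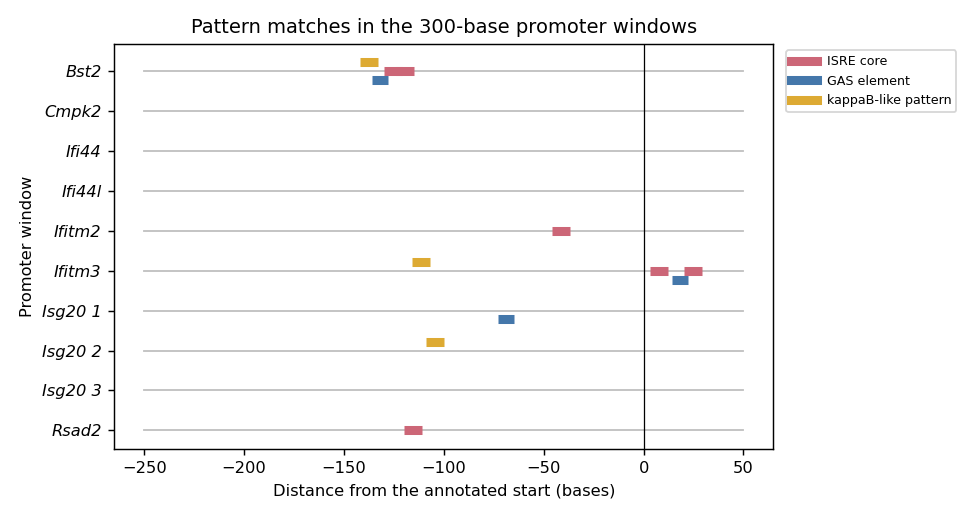
Matches of 3 patterns in the 10 promoter windows of 8 genes, by distance in bases from the annotated start (grey line, the window of 300 bases; coloured blocks, ISRE core, gamma-activated site (GAS) and kappaB-like pattern). The ISRE core lies in the windows of Bst2, Ifitm2, Ifitm3 and Rsad2 and in none of the windows of Cmpk2, Ifi44, Ifi44l and Isg20.

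Libraries held between 2597505 and 3472716 fragments counted on genes. Levels are given as CPM, counts scaled to a common library size, after TMM, and a level of 3 counts, 0.673 to 1.24 CPM by library, was taken as the lower limit of counting. Replicate 3 stood apart in both groups: chi-square values per degree of freedom, compared library by library within a group, were 2.12 and 2.32 for replicates 1 and 2 and between 5.81 and 12.5 for pairs with replicate 3. The ribosomal precursor Rn45s took 22.2, 22.3 and 32.4% of counted fragments in replicates 1, 2 and 3 of GSK-J4 and 45.8 to 48.1% in LPS + GSK-J4. The chi-square values were taken from counts without TMM, Rn45s included, and its part in the distance of replicate 3 was not tested. Among the microglia markers, Csf1r (758 ± 10.3 CPM, SD, n = 3, in GSK-J4) and Cx3cr1 (362 ± 4.03 CPM) were abundant. P2ry12 (13.2 CPM), Aif1 (6.37 CPM) and Tmem119 (5.01 CPM) were low in GSK-J4. The 10 markers summed to 3195 to 3281 CPM with GSK-J4 alone against 2514 to 2631 CPM with LPS. Of these markers, 2 of 10 were lower at an adjusted p of at most 0.01 by edgeR, against 5.46% of all tested genes.

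Markers of other cells also differed between the groups. In LPS + GSK-J4 the summed level was higher for astrocytes (131 to 159 against 53.9 to 59.4 CPM, 3 of 7 tested markers higher at an adjusted p of at most 0.01 by edgeR), the oligodendrocyte lineage (389 to 439 against 213 to 243 CPM, 5 of 7), endothelial cells (25.0 to 62.4 against 13.9 to 21.2 CPM, 1 of 2) and neurons (32.4 to 40.6 against 14.8 to 19.1 CPM, 2 of 2). It was lower for border macrophages and monocytes (31.4 to 45.8 against 50.6 to 65.8 CPM, 0 of 1 tested), with Ccr2 and Ly6c2 below 1 CPM on average in both groups. It overlapped for fibroblasts (132 to 393 against 71.8 to 262 CPM, 0 of 5). Of all tested genes, 8.42% were higher and 5.46% lower at this adjusted p. Lists with 1 or 2 tested markers are too short to set against these shares. The endothelial marker Cldn5 was at 0 in all libraries. These levels moved with every difference given below, and their part in the results was not tested. In bulk RNA, fewer cells of a type and less RNA per cell cannot be told apart.

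A gene was called where edgeR's quasi-likelihood test gave a p, adjusted by Benjamini-Hochberg over all genes tested, of 0.01 or less and the log2 fold change was 1.5 or more in size. By this rule 3 of the 8 tested members were called up, against 2.95% of all tested genes, and 0 were called down, against 0.809%. At an adjusted p of at most 0.01 alone, 4 of the 8 were higher, against 8.42% of all tested genes, and 0 were lower, against 5.46%. The 3 libraries of LPS + GSK-J4 all lay above the 3 of GSK-J4 for 5 of the 8 members, against 19.8% of all tested genes, and all below for 1, against 18.4%. The median log2 fold change was 1.28 for the 8 tested members and -0.00064 for all tested genes. DESeq2 also called 3 members, and with both replicate 3 libraries left out, an alternative chosen after seeing the data, 3 were called as well.

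Rsad2 and Cmpk2, which act in 1 chemical pathway, gave the largest differences. Rsad2 encodes viperin, a radical SAM enzyme that turns CTP into a nucleotide that stops viral RNA polymerases, and Cmpk2 encodes a mitochondrial kinase that helps to supply CTP. The genes are neighbours on chromosome 12 in the GENCODE annotation of mm10, Rsad2 at chr12:26442746-26456452 on the minus strand and Cmpk2 at chr12:26469204-26479837 on the plus strand, so they point away from each other with starts 12.8 kb apart.

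In GSK-J4, Rsad2 was at 5.19, 5.16 and 6.23 CPM (22, 23 and 17 counts in replicates 1, 2 and 3). In LPS + GSK-J4 it was at 529, 583 and 469 CPM (1355, 1529 and 1136 counts). Every library with LPS was far above every library without, and the lowest of them was replicate 3. The means were 5.53 ± 0.610 and 527 ± 57.2 CPM (SD, n = 3), and the fitted log2 fold change was 6.59 ± 0.17 (SE, 95% interval 6.23 to 6.94, adjusted p = 1.34e-13 by edgeR). This was the fifth largest log2 fold change of all tested genes.

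Cmpk2 was at 4.48, 5.84 and 3.67 CPM in GSK-J4 (19, 26 and 10 counts). With LPS it was at 188, 213 and 246 CPM (482, 559 and 595 counts). The groups were again far apart, and here replicate 3 was the highest of the LPS + GSK-J4 libraries. The means were 4.66 ± 1.10 and 216 ± 28.9 CPM, and the fitted log2 fold change was 5.48 ± 0.19 (SE, 95% interval 5.08 to 5.89, adjusted p = 4.78e-12 by edgeR), which ranked 15 among all tested genes.

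The size of the rise in the pair was compared within libraries. Per kilobase of exon, the ratio of Rsad2 to Cmpk2 within a library was 1.20 ± 0.399 without LPS and 2.39 ± 0.480 with it (SD, n = 3), with ranges of 0.850 to 1.63 and 1.83 to 2.70. The ranges did not overlap, and the two-sided exact permutation test of this ratio gave p = 0.10, below which a design of 3 against 3 cannot go. The 95% intervals of both log2 fold changes, given above, also lay apart.

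The Mx genes encode dynamin-like GTPases. In mice, Mx1 acts in the nucleus against influenza-type viruses and Mx2 in the cytoplasm against others. RefSeq lists both as transcribed pseudogenes in the reference strain, in which they carry inactivating changes. GENCODE differs for Mx1, which it lists as protein-coding, and lists Mx2 as a polymorphic pseudogene. Which alleles the ICR mice carried was not analysed here, so these values are transcript counts and say nothing of the protein. The genes lie on chromosome 16, Mx1 at chr16:97447035-97462907 on the minus strand and Mx2 at chr16:97535308-97560900 on the plus strand, with starts 72.4 kb apart.

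Mx2 had 10, 3 and 3 counts in GSK-J4 (2.36, 0.673 and 1.10 CPM), at or near the lower limit. With LPS it had 51, 53 and 56 counts (19.9, 20.2 and 23.1 CPM). The LPS + GSK-J4 libraries were close to each other and all above the others, and Mx2 could pass the filter on low counts only through them. The means were 1.38 ± 0.877 and 21.1 ± 1.77 CPM (SD, n = 3), and the log2 fold change was 3.87 ± 0.35 (SE, 95% interval 3.14 to 4.61, adjusted p = 5.42e-07 by edgeR), 32 in the order of all tested genes. The ratio of the summed counts, scaled for depth, was 15.02 with a 95% interval of 8.97 to 26.9 that covers counting error only. Without GSK-J4 replicate 1, which held 10 of the 16 counts of that group, the log2 fold change was 4.58.

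Mx1 gave a smaller difference. It had 15, 24 and 15 counts in GSK-J4 (3.54, 5.39 and 5.50 CPM) and 26, 31 and 32 counts with LPS (10.1, 11.8 and 13.2 CPM). The groups did not overlap. The mean was 4.81 ± 1.10 against 11.7 ± 1.54 CPM, and the log2 fold change of 1.30 ± 0.29 (SE, 95% interval 0.69 to 1.90, adjusted p = 0.00332 by edgeR) was under the fold threshold, so Mx1 was not called. Its adjusted p was above 0.01 without GSK-J4 replicate 1 (0.0233), without LPS + GSK-J4 replicate 2 (0.0164) and by DESeq2 (0.0199). The 95% intervals of the log2 fold changes of Mx1 and Mx2 did not meet.

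**Figure D2:**
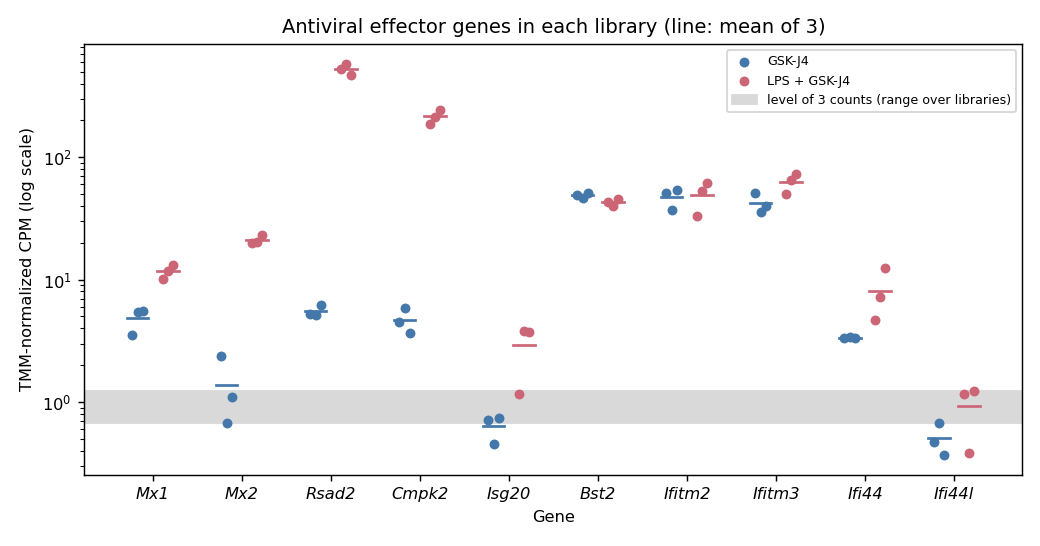
TMM-normalized CPM of the 10 genes in each library on a log axis (points, 3 libraries of GSK-J4 in blue and 3 of LPS + GSK-J4 in red; lines, group means; grey band, the level of 3 counts over the libraries). Rsad2, Cmpk2 and Mx2 are far apart between the groups, Bst2, Ifitm2 and Ifitm3 lie between 33.2 and 73.5 CPM in all libraries, and Ifi44l stays at or under the grey band.

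Bst2, Ifitm2 and Ifitm3 encode membrane proteins that act at the entry and exit of enveloped viruses. BST2, or tetherin, holds budding particles at the cell surface, and the IFITM proteins hinder the fusion of viral with cell membranes. All 3 were already abundant in GSK-J4 and none was called.

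Bst2, at chr8:71534255-71537456 on the minus strand, was at 49.1, 46.5 and 51.3 CPM in GSK-J4 (208, 207 and 140 counts). With LPS it was at 43.3, 40.1 and 45.8 CPM (111, 105 and 111 counts). It was the only tested member that lay lower in every LPS + GSK-J4 library than in any GSK-J4 library. The difference was small, 49.0 ± 2.44 against 43.1 ± 2.89 CPM, and the log2 fold change of -0.18 ± 0.14 (SE, 95% interval -0.49 to 0.12) had an adjusted p of 0.406 by edgeR. The interval leaves room for a small change in either direction.

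Ifitm3, at chr7:141009586-141010770 on the minus strand, was at 50.7, 35.7 and 40.3 CPM in GSK-J4. With LPS it was at 49.96, 65.3 and 73.5 CPM. The groups overlapped through replicate 1 of each. The mean was 42.2 ± 7.70 against 62.9 ± 11.9 CPM, and the log2 fold change was 0.57 ± 0.18 (SE, 95% interval 0.20 to 0.94, adjusted p = 0.0269 by edgeR).

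Ifitm2, at chr7:140954837-140955987 on the minus strand and 54.8 kb from Ifitm3 by their starts, was at 51.0, 37.3 and 53.5 CPM in GSK-J4. With LPS it was at 33.2, 52.7 and 61.9 CPM. These groups overlapped widely, with the lowest and the highest value both in LPS + GSK-J4. The mean was 47.3 ± 8.75 against 49.3 ± 14.7 CPM, and the log2 fold change was 0.067 ± 0.21 (SE, 95% interval -0.37 to 0.50, adjusted p = 0.856 by edgeR). Its sign turned to -0.091 without GSK-J4 replicate 2 and to -0.12 without LPS + GSK-J4 replicate 3. In both Ifitm genes replicate 1 was the lowest of the 3 LPS + GSK-J4 libraries. Genes of this family resemble each other in sequence, and fragments that map to more than 1 place were not counted on any gene. In the annotation 268 bp of the exons of Ifitm2 overlap a gene model on the same strand, Gm45717, that the count tables do not list.

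The other genes of the Ifitm cluster, Ifitm1, Ifitm5, Ifitm6, Ifitm7 and Ifitm10, were all too low to test. Ifitm1 averaged 1.19 CPM against 2.84 CPM with LPS, with overlapping groups, and Ifitm7 was at 0 in all libraries.

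Ifi44 and Ifi44l encode related proteins induced by interferon whose action on viruses is less well defined. They lie in a row on chromosome 3, Ifi44 at chr3:151730922-151749960 and Ifi44l at chr3:151758737-151762892, both on the minus strand. Ifi44 had 14, 15 and 9 counts in GSK-J4 (3.30, 3.37 and 3.30 CPM) and 12, 19 and 30 counts with LPS (4.68, 7.25 and 12.4 CPM). The GSK-J4 libraries were nearly equal, and those with LPS were all higher and spread widely. The mean was 3.32 ± 0.0379 against 8.11 ± 3.92 CPM, and the log2 fold change of 1.27 ± 0.38 (SE, 95% interval 0.47 to 2.06) had an adjusted p of 0.0213 by edgeR and was not called. The call depended on single libraries. Without LPS + GSK-J4 replicate 1 Ifi44 was called, at a log2 fold change of 1.54 and an adjusted p of 0.00568 by edgeR, and without LPS + GSK-J4 replicate 3 the log2 fold change was 0.84.

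Ifi44l had 2, 3 and 1 counts in GSK-J4 against 3, 1 and 3 counts with LPS. Every library was at or under the limit of 3 counts, so a difference was not detectable at this depth.

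Isg20, an exonuclease that degrades RNA, lies at chr7:78913424-78920396 on the plus strand. It had 3, 2 and 2 counts in GSK-J4 against 3, 10 and 9 counts with LPS (0.708, 0.449 and 0.733 against 1.17, 3.82 and 3.72 CPM). Replicates 2 and 3 with LPS were above the limit of 3 counts and replicate 1 was at it. The ratio of the summed counts was 4.72 with a 95% interval of 1.95 to 13.1 for counting error only. Isg20 did not pass the filter, and in the edgeR fit with no filter it had an adjusted p of 0.0179. DESeq2 gave it an adjusted p of 0.105.

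**Figure D3:**
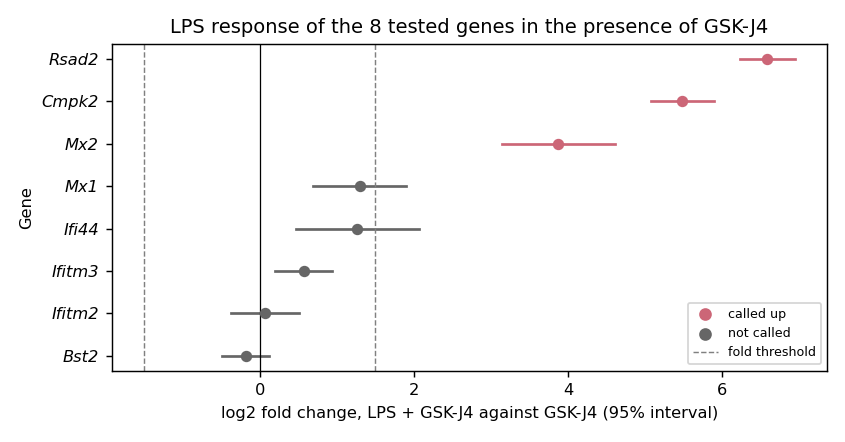
Log2 fold change with LPS of the 8 tested genes, both groups in GSK-J4, by edgeR (points) with 95% intervals (lines), red for genes called up, with dashed lines at the fold threshold of 1.5 in both directions. The intervals of Rsad2, Cmpk2 and Mx2 lie wholly above the threshold, those of Mx1 and Ifi44 cross it, and those of Ifitm2 and Bst2 include 0.

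Levels of different genes were compared per kilobase of exon of the GENCODE annotation, in CPM per kb. In GSK-J4 the order fell into blocks. Ifitm2 (72.1 ± 13.4 CPM per kb, SD, n = 3), Ifitm3 (62.3 ± 11.4) and Bst2 (54.2 ± 2.70) came first, and each overlapped the next in its range over libraries. After a wide gap followed Rsad2 (1.28 ± 0.141), Mx1 (1.27 ± 0.291) and Cmpk2 (1.12 ± 0.263), whose ranges also overlapped. Ifi44 (0.542), Mx2 (0.381), Ifi44l (0.366) and Isg20 (0.339) came last, with each range meeting the next.

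In LPS + GSK-J4, Rsad2 stood first with 121.6 ± 13.2 CPM per kb. Its range touched that of Ifitm3 (92.8 ± 17.6), and the ranges of Ifitm2 (75.2 ± 22.4), Cmpk2 (51.8 ± 6.93) and Bst2 (47.7 ± 3.20) followed, each overlapping its neighbour. Mx2 (5.83 ± 0.491) and Mx1 (3.10 ± 0.406) each stood apart from their neighbours in the order, and Isg20 (1.56), Ifi44 (1.32) and Ifi44l (0.676) were again last and overlapped. Mx2 thus lay below Mx1 in all GSK-J4 libraries and above it in all those with LPS.

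Summed over the 10 genes, the level per length was 194 ± 24.2 CPM per kb without LPS and 402 ± 45.5 CPM per kb with LPS. Rsad2, Cmpk2 and Mx2 made up 1.45 ± 0.198% of this sum in GSK-J4, against 45.0 ± 4.79% with LPS. Bst2, Ifitm2 and Ifitm3 made up 97.2 ± 0.464% and 53.4 ± 4.53%. Without the 3 called genes, the other 7 summed to 148 ± 16.1 CPM without and 179 ± 34.2 CPM with LPS, with overlapping ranges of 129 to 159 and 144 to 212 CPM.

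**Figure D4:**
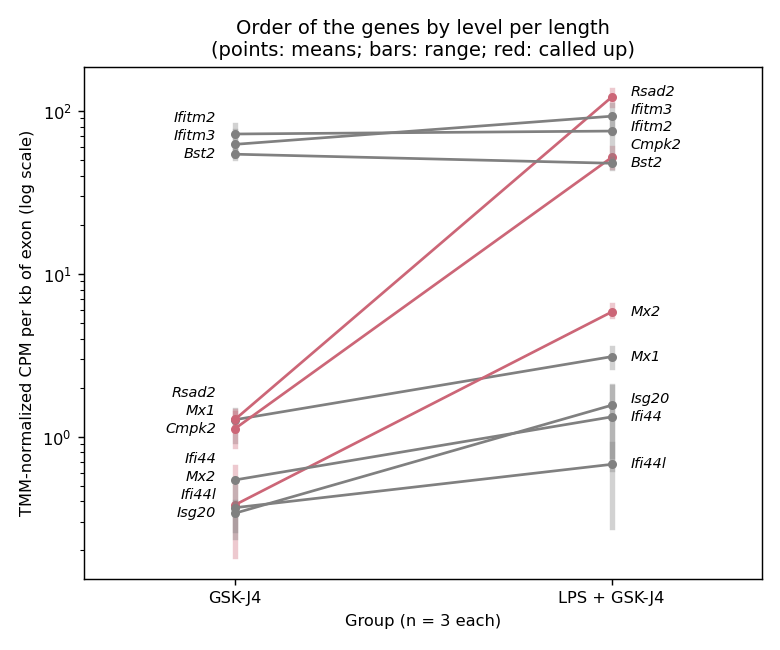
Mean level per length of the 10 genes in both groups, in CPM per kb of exon on a log axis (points, means of 3 libraries; pale bars, range over libraries; red, genes called up; grey, all others). Rsad2 goes from 1.28 to 121.6 CPM per kb and reaches the level of Ifitm2, Ifitm3 and Bst2, whose levels stay near each other in both groups.

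The other steps of the interferon system were read from the same fit, in which 2.95% of all tested genes were called up and 0.809% down. The list of TLR4-side genes had 10 of 10 genes tested, of which 0 were called up and 1 was called down. A single gene of 10 is too few to set against those shares. The gene called down was Ticam2, the adaptor TRAM, at 82.3 CPM without and 24.3 CPM with LPS (log2 fold change -1.76, adjusted p = 1.65e-06 by edgeR). At an adjusted p of at most 0.01 alone, 3 of the 10 were higher, against 8.42% of all tested genes, and 1 was lower, against 5.46%. Cd14, the LPS co-receptor (log2 fold change 0.89), Ticam1, the adaptor TRIF (0.74), and Irf7 (1.37) were higher at an adjusted p of at most 0.01 without reaching the fold threshold.

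Of 8 interferon genes, Ifnb1 alone had enough counts for the test and was called up. It had 1 count in all GSK-J4 libraries together and 673 counts in those with LPS, at 88.3 ± 9.80 CPM (SD, n = 3). Ifnb1 could therefore pass the filter on low counts only through the libraries with LPS. Ifna1, Ifna5, Ifnl2 and Ifng were at 0 in all libraries, and Ifna2, Ifna4 and Ifnl3 averaged at most 0.130 CPM. Of the receptor and signalling genes, 0 of 6 tested were called in either direction by edgeR. For so few genes this is near the shares of all tested genes, 2.95% up and 0.809% down. Ifnar1 had a log2 fold change of 0.074 and Stat2 of 0.45, and Irf9 had one of 0.62 with an adjusted p of 0.0112.

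All 3 feedback inhibitors were called up, with log2 fold changes of 1.54 for Usp18, a brake on the interferon receptor, 2.55 for Socs1 and 2.98 for Socs3, inhibitors of JAK signalling. Usp18 was not called in the fit with no filter on low counts. Socs1 had 12 counts summed over the GSK-J4 libraries and could pass that filter only through the LPS + GSK-J4 libraries.

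A list of 33 further antiviral effectors outside the 10 genes was tested in full, and 12 were called up, against 2.95% of all tested genes, and 0 down, against 0.809%. Their median log2 fold change was 0.97, with a range of -0.98 to 6.58. Of those called, Ifit1, Oasl1 and Ch25h had 20, 17 and 17 counts summed over the GSK-J4 libraries. Ifit3 and Rtp4 had 33 and 56 counts there, with 2.57 and 2.20 CPM in their lowest GSK-J4 library. All of these genes could pass the filter on low counts only through the LPS + GSK-J4 libraries, and the count of 12 includes them. Those called included the RNA-binding Ifit1 (6.58), Ifit2 (4.41) and Ifit3 (3.49), the RNA sensor gene Ifih1 (4.91), Oasl1 (5.98), the ubiquitin-like modifier Isg15 (5.90) and Ch25h (3.87), an enzyme that makes an antiviral oxysterol. Oas1a (0.40), Adar (0.088), the nucleotide hydrolase gene Samhd1 (-0.20) and Apobec3 (-0.13) were among those not called. The plot of the interferon lists shows the spread of these values from below 0 to the level of Rsad2.

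**Figure D5:**
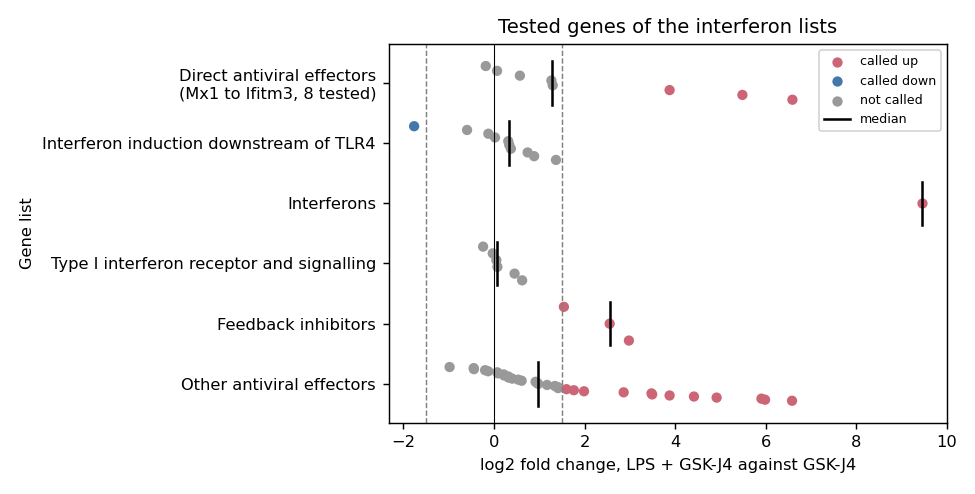
Log2 fold change with LPS, both groups in GSK-J4, of each tested gene (points; red, called up; blue, called down; grey, not called) in the direct antiviral effector genes and in 5 interferon lists, with the list median as a black line and the fold threshold of 1.5 dashed. The receptor and signalling genes lie between -0.24 and 0.62, and the other antiviral effectors spread from -0.98 to 6.58. The single point of the interferons is Ifnb1, whose fitted value rests on 1 count in GSK-J4 and depends on the prior count of the fit.

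Genes with the most similar profile were found for each called member as the smallest root mean square difference over the 6 libraries of log2(CPM + 1), each gene centred on its GSK-J4 mean. For Rsad2 they were Ifnb1 (0.174), Gbp5, a guanylate-binding protein (0.359), and the chemokine gene Ccl4 (0.422). For Cmpk2 they were Nfkbiz (0.286), Tnfsf9 (0.312) and Oasl1 (0.342), and for Mx2 they were Rab11fip1 (0.119), Nfkbia, the inhibitor of NF-kappaB (0.200), and Ifit1bl2 (0.242). This measure is mostly set by the size of the difference between the groups in log2(CPM + 1), which the 6 libraries share. The added 1 makes that difference smaller for genes near 0 in GSK-J4. Ifnb1 (0.0786 CPM in GSK-J4) thus lay near Rsad2 with a fitted log2 fold change of 9.44 against 6.59. Likewise Ifit1bl2 (0.358 CPM) lay near Mx2 with 5.03 against 3.87.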

How the data were processed

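RNA-seq libraries of PM were compared, 3 of GSK-J4 and 3 of LPS + GSK-J4, grouped by the titles in the labels. According to the submitters' processing notes, CASAVA 1.8.2, Trimmomatic 0.33, STAR 2.5.1 and DESeq2 were used with mm10. The authors deposited the raw counts per gene of each library with no normalization, in unstranded, same-strand and reverse-strand columns. The annotation used for counting is not given in the sources used here. The reverse-strand counts, the larger of the strand columns, were used for this directional library kit, and the same-strand column held 0.966 to 1.38% of gene counts on either strand. Tally lines that name no gene took 73.96 to 78.05% of the 11831774 to 13487463 fragments per library and were left out of library sizes and tests.

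The robust quasi-likelihood test of edgeR 4.0.16 (run under R 4.3.3, beside limma 3.58.1) was used without covariates and with TMM scaling. Low genes were removed by filterByExpr (min.count 10, min.total.count 15), and p values were adjusted over the 10133 tested genes (Benjamini-Hochberg). The threshold values for p and fold are those the study names. The study names a false discovery rate beside its p threshold, and the adjusted p was used here. The fit was tested on simulated data. Counting intervals and the limit of 3 counts cover counting error only. The members and gene lists were chosen with earlier results of these data known. The genes named are the members, the genes of the interferon lists, genes within 100 kb of a member and, for each called member, the 3 genes most like it. Alternatives were unstranded counts, DESeq2 size factors, removal of Rn45s, Mir6236 and Lars2, the DESeq2 1.42.0 Wald test, no filter, at least 10 counts in every library, other thresholds, a replicate block and leaving out each library. Leaving out both replicate 3 libraries was added after seeing the data. Positions and exon lengths are from GENCODE, and promoters from RefSeq. Summaries used Python 3.11.15 (pandas 2.3.3, numpy 2.4.6, scipy 1.17.1) and plots matplotlib 3.10.9.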

Additional observations from a re-analysis of the deposited data

Results flagged for a closer look

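Counts on the antisense strand of 2 members were above their level in the GSK-J4 libraries, in a column that the comparisons did not use. Antisense to Rsad2 there were 0, 0 and 0 counts in GSK-J4 and 6, 12 and 18 counts in LPS + GSK-J4, 36 in all, which was 0.888% of the counts on either strand of the gene in that group. Antisense to Cmpk2 there were 0, 1 and 1 counts in GSK-J4 and 5, 8 and 3 counts in LPS + GSK-J4, 16 in all, or 0.969% of the counts on either strand. Over all genes the antisense share of the LPS + GSK-J4 libraries was 0.966 to 1.08%. No test was made of these counts.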

How the results depend on the processing

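Rsad2 and Cmpk2 were called up under all alternatives for which they were fitted, and Mx2 under all but 1 of them, the filter of at least 10 counts in every library, which it did not pass. Their log2 fold changes ranged from 6.51 to 6.75, 5.28 to 5.68 and 3.48 to 4.58. The number of members called was 3, and 3 to 4 with 1 library left out. It was 5 at thresholds of 0.05 for the adjusted p and 1 for the log2 fold change, which by its construction admits Mx1 and Ifi44. Over all genes 381 were called, 351 to 470 with 1 library left out. There were 232 (176 up and 56 down) with at least 10 counts in every library, where fewer genes are tested, and 1129 (844 and 285) and 1406 (853 and 553) at the wider thresholds of 0.05 and 1 and of an adjusted p of at most 0.01 alone. Ifitm2 was the only member whose sign turned, with a range of -0.12 to 0.28 with 1 library left out (-0.091 without GSK-J4 replicate 2, -0.12 without LPS + GSK-J4 replicate 3) and -0.027 without both replicate 3 libraries. The cause was not tested. Ifi44 was called without LPS + GSK-J4 replicate 1 (1.54). Of the interferon lists, 17 genes were called and 16 with no filter.

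Whether the replicate numbers pair the samples is not settled by these data. Deviations of same-numbered libraries correlated at -0.010, 0.117 and 0.295 across genes. The value for replicate 3 was the highest of all pairs. GSK-J4 replicate 2, in contrast, correlated best with LPS + GSK-J4 replicate 1 (0.243). With the replicate block 396 genes were called (306 up and 90 down) and the same number of members, 3. Depth limits Ifi44l, Isg20 and the GSK-J4 level of Mx2, which were near 3 counts per library.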

Other observations

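Within 100 kb of a member the count tables held 38 other genes, of which 17 were tested, 12 near Bst2, 3 near Ifitm2 and 2 near Isg20. None of the other genes near Rsad2, Cmpk2 and Mx2 had enough counts for the test, so nothing can be said of the surroundings of the called members. By edgeR 0 of the 17 were called up, against 2.95% of all tested genes, and 0 down, against 0.809%, which is near these shares for so few genes. In the same fit 1 of the 17 had an unadjusted p under 0.05, and DESeq2 called 0. Their median log2 fold change was -0.051. The 1 gene was Aen, which lies 2.22 kb from Isg20 on the same strand and encodes an exonuclease related to ISG20. It averaged 12.1 ± 0.905 CPM without LPS and 22.2 ± 7.86 CPM with it (SD, n = 3), with a log2 fold change of 0.87 ± 0.25 (SE) and an adjusted p of 0.0187 by edgeR, and was not called.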
